A study of Sus scrofa with 92 samples.

Results

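Psoas major and longissimus dorsi are neighbouring trunk muscles of the pig. Psoas major, the tenderloin, runs under the lumbar spine to the femur and flexes the hip, while longissimus dorsi, the loin, lies along the back and extends and steadies the spine. RNA sequencing of psoas major was compared with that of longissimus dorsi in pigs of 10 breeds at 60 days of age, with 1 library of each muscle per breed. These 20 libraries, chosen by their tissue labels alone, are part of a series of 92 that also covers heart, liver, spleen, lung, kidney, subcutaneous adipose, ovary and mixtures of tissues. The psoas major group and the longissimus dorsi group each held Bamei, Berkshire, Hampshire, Jinhua, Landrace, Large White, Meishan, Piétrain, Rongchang and Tibetan wild boar, with no treatment and no induced genetic change named in the labels. Whether 1 animal gave both muscles of a breed, and whether several were pooled, the labels leave unstated, so the spread given here is between breeds and may hold technical as well as animal differences.

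Skeletal muscle is built from slow fibres, which rely on mitochondria and fat, and from several kinds of fast fibre, of which the fastest rely on glycogen and glycolysis. Each kind carries its own isoforms of myosin, troponin and other sarcomere proteins, and the mix differs between muscles. Muscles also keep a record of where they formed: HOX genes and other patterning transcription factors stay active after birth according to position along the body and to origin from the back-forming or the limb- and belly-forming part of the somite. Values below are FPKM as the authors deposited them (fragments corrected for gene length and library size), scaled between the 20 libraries by median ratios unless stated otherwise. Differences are psoas major minus longissimus dorsi on the scale log2(scaled FPKM + 1), with the standard error (SE) over 10 breed pairs. Where 3 levels are given for a muscle, they are the lowest, the median and the highest of its 10 libraries. Calls were made where limma, with breed as a block, gave an adjusted p under 0.05 (two-sided, Benjamini-Hochberg over all genes tested).

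The libraries carried skeletal muscle transcripts throughout. TNNC2, fast troponin C, was at 4179 to 12479 FPKM in psoas major and at 6194 to 20062 FPKM in longissimus dorsi, and MYF6, a myogenic transcription factor, was at 48.7 to 288 FPKM in psoas major and 48.9 to 314 FPKM in longissimus dorsi. Cardiac troponin T, TNNT2, was at most 12.6 FPKM as deposited in psoas major and 33.2 in longissimus dorsi, against 3835 to 5333 FPKM in the 9 heart libraries. The myosins MYH1, MYH2, MYH4 and MYH7 were not analysed here, because no gene ID of the tables was paired with those symbols. Summed FPKM ran from 519075 to 1082118 in psoas major and from 700256 to 942855 in longissimus dorsi, and read counts, and with them the absolute depth, were not analysed here. The lowest of these totals belonged to psoas major of Tibetan wild boar, in which the 10 highest genes carried 33.3% of the summed FPKM. Over all breeds the 10 highest genes carried 46.2% ± 5.9 (SD, n = 10) in psoas major and 34.5% ± 4.1 (SD, n = 10) in longissimus dorsi, higher in psoas major in 10 of 10 breeds (exact sign-flip test, two-sided p = 0.00195, the smallest that 10 pairs allow; adjusted over 2 measures p = 0.00391). Without the mitochondrially encoded genes this share was higher in psoas major in 9 of 10 breeds (exact sign-flip test, two-sided p = 0.00391). Tibetan wild boar then had 26.2% in psoas major and 29.5% in longissimus dorsi. The number of genes at 1 FPKM or more was 10807 ± 331 in psoas major and 10838 ± 336 in longissimus dorsi (exact sign-flip test, two-sided p = 0.684). Some genes that reach 10 FPKM in at least 5 libraries of a muscle are listed at exactly 0 in others of it, with 96 such zeros over 35 gene IDs in psoas major and 81 over 31 in longissimus dorsi, so a 0 may be a failed estimate.

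Of 12112 genes tested, 3376 differed between psoas major and longissimus dorsi, which is 27.9% of them. Higher levels in psoas major were called for 1657 genes (13.7%) and lower levels for 1719 (14.2%). Most differences were small: the median absolute log2 difference of called genes was 0.32, and 33 genes lay above a log2 difference of 1 and 67 below -1. The median over all genes tested was -0.005, the value against which the lists below are read. Among called genes, 1323 moved in the same direction in 10 of 10 breeds. With FPKM as deposited, 1122 genes were called higher and 1802 lower, so that 38.4% of calls were higher in place of 49.1%. Without breed in the model 663 genes were called, all of them among the 3376. Without Tibetan wild boar, the breed whose psoas major library stands apart in its total, 3468 genes were called, 1737 higher and 1731 lower. The members of the lists below were chosen from general knowledge with earlier results of these data known.

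Genes that take up and burn fatty acids were higher in psoas major. Of 15 tested genes of mitochondrial beta oxidation, the stepwise shortening of fatty acids to acetyl-CoA, 12 were called higher and 0 lower, and their median log2 difference was 0.53. Of 9 tested genes of fatty acid uptake and activation, 6 were called higher and 0 lower, with a median of 0.47. The median of each of these lists lay above 0 in 10 of 10 breeds. Of all genes tested, 13.7% were called higher.

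HADHB (ENSSSCG00000008569), the beta subunit of the trifunctional protein that carries out the last steps of long-chain beta oxidation, had lowest, median and highest levels of 96.9, 145 and 361 FPKM in psoas major, against 57.9, 84.4 and 103 FPKM in longissimus dorsi. Psoas major of Piétrain, Hampshire and Jinhua stood far above the rest, and the lowest psoas major library, Tibetan wild boar, was the single one within the longissimus dorsi range. The log2 difference was 1.10 ± 0.21, 2.15-fold higher in psoas major on that scale, positive in 10 of 10 breeds (limma adjusted p = 0.00299). Its partner subunit HADHA was at 144, 208 and 389.8 FPKM in psoas major and at 98.3, 141 and 225 FPKM in longissimus dorsi, with overlapping ranges and a log2 difference of 0.64 ± 0.13 (limma adjusted p = 0.00339). The thiolase ACAA2, which releases acetyl-CoA, was at 47.9, 70.0 and 110.0 FPKM in psoas major and 23.8, 36 and 50.3 FPKM in longissimus dorsi. Psoas major of Hampshire alone fell below the highest longissimus dorsi library, that of Landrace. The log2 difference of ACAA2 was 0.99 ± 0.12, positive in 10 of 10 breeds (limma adjusted p = 0.000218). The dehydrogenases ACADM (medium-chain acyl-CoA), ACADSB (short and branched chain) and HADH (short-chain hydroxyacyl) had log2 differences of 0.58, 0.56 and 0.54. UCP3, an inner membrane carrier of muscle mitochondria that is linked to fat use, was not called, with 22.6, 50.7 and 75 FPKM in psoas major and 33.1, 59.9 and 80.1 FPKM in longissimus dorsi. Without breed in the model 9 of the beta oxidation genes were called higher and 2 of those of uptake and activation.

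Upstream of beta oxidation, ACSL1, the main long-chain acyl-CoA synthetase of muscle, was at 79.3, 186 and 544 FPKM in psoas major and 39.7, 96.9 and 222 FPKM in longissimus dorsi. It was highest in Jinhua in both muscles, and Berkshire alone had about equal levels, 162 FPKM in psoas major and 170.0 FPKM in longissimus dorsi. Within breeds it differed by 0.90 ± 0.15 (limma adjusted p = 0.00146). The fatty acid transporter SLC27A1 (0.69), the acyl-CoA synthetase ACSL3 (0.47) and the carnitine shuttle genes CPT1B (0.54), CPT2 (0.64) and SLC25A20 (0.25) were also called higher, the values in parentheses being log2 differences. Carnitine acetyltransferase, CRAT, was not called at -0.15 (limma adjusted p = 0.0606), but was called lower with FPKM as deposited, with limma without its trend and robust options and without Tibetan wild boar.

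PLIN5 (ENSSSCG00000013513), a coat protein that ties lipid droplets to mitochondria in oxidative tissue, was at 22.8, 35.2 and 116 FPKM in psoas major and 8.04, 15.7 and 38.4 FPKM in longissimus dorsi. The ranges overlapped, and Jinhua had the highest level in both muscles. Within breeds the order never turned: the log2 difference was 1.17 ± 0.15, 2.24-fold, and ran from 0.33 in Berkshire to 2.23 in Piétrain (limma adjusted p = 0.000403). ABHD5, the coactivator of triglyceride lipase, was higher by 0.48 on the log2 scale in 10 of 10 breeds. LIPE, hormone-sensitive lipase, was called lower at -0.62, a call that ended without Bamei, Berkshire, Jinhua, Landrace, Rongchang or Tibetan wild boar, and PNPLA2, adipose triglyceride lipase, was not called at 0.20. Of 9 lipid droplet and lipolysis genes 3 were called higher and 2 lower, the lower count falling to 0 without Landrace or Rongchang.

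**Figure D1:**
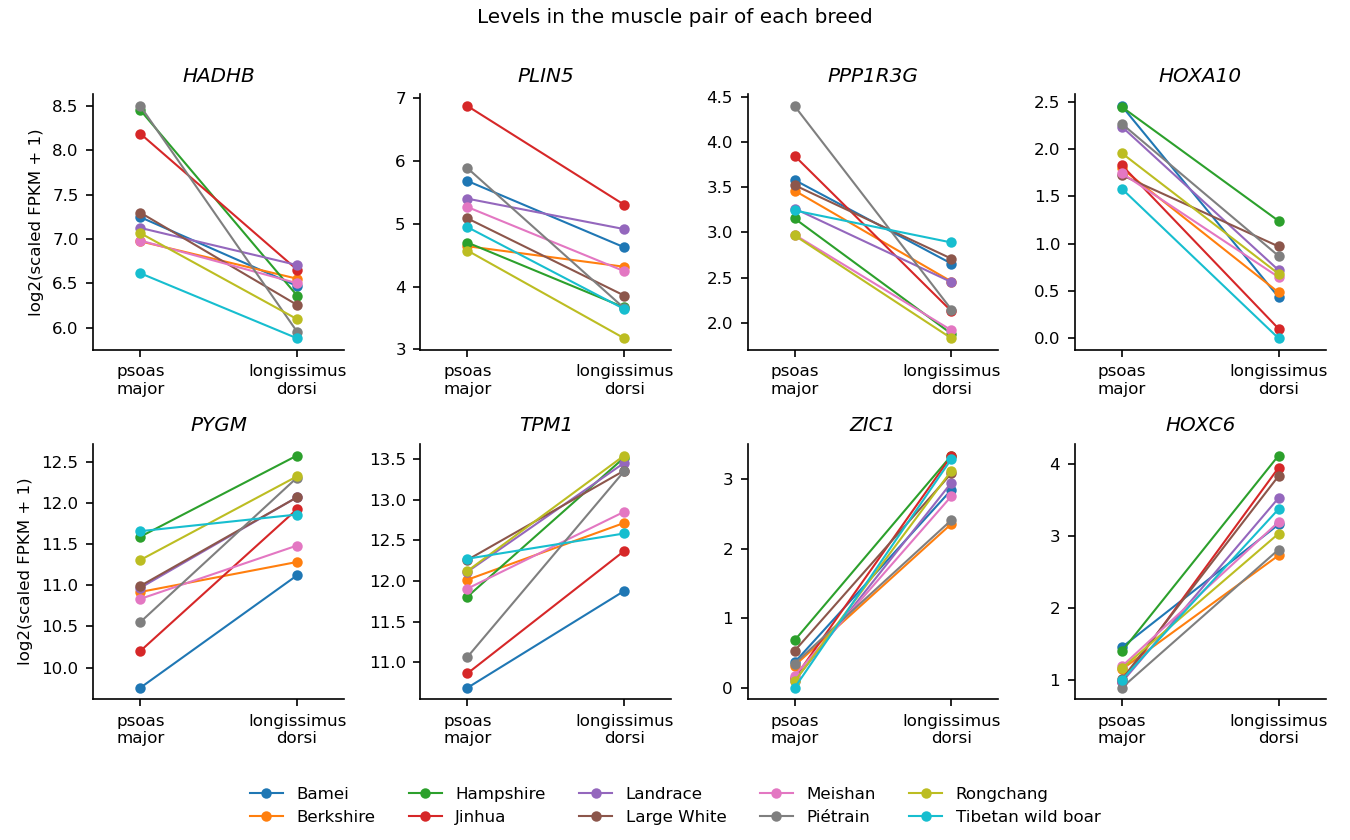
Levels of 8 genes in psoas major (left of each panel) and longissimus dorsi (right) as log2(scaled FPKM + 1), each line joining the muscles of 1 breed. On axes that differ between panels, HADHB, PLIN5, PPP1R3G and HOXA10 were higher in psoas major in all 10 breeds and PYGM, TPM1, ZIC1 and HOXC6 lower in all 10, and for PPP1R3G, HOXA10, ZIC1 and HOXC6 the muscles did not overlap.

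Genes that feed ketone bodies and branched-chain amino acids into mitochondria followed the same direction. Of 18 tested, 11 were called higher and 1 lower, with a median log2 difference of 0.35. DBT, the acyltransferase core of the branched-chain ketoacid dehydrogenase, was at 8.91, 20.6 and 34 FPKM in psoas major and 4.5, 9.42 and 17.5 FPKM in longissimus dorsi. Its log2 difference of 0.95 ± 0.14 was positive in 10 of 10 breeds (limma adjusted p = 0.000618). OXCT1, which activates ketone bodies for oxidation, was at 30.5, 70.8 and 101 FPKM in psoas major and 20.2, 42.1 and 64.8 FPKM in longissimus dorsi. It was higher in psoas major in 10 of 10 breeds by 0.63 ± 0.06 (limma adjusted p = 5.95e-05). The carboxylase subunits PCCA and MCCC1 and methylmalonyl-CoA mutase, MMUT, had log2 differences of 0.59, 0.58 and 0.45. The kinase that switches the branched-chain complex off, BCKDK, was not called at -0.18. Without breed in the model 1 gene of the list, DBT, was called.

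The entry of pyruvate into mitochondria and the tricarboxylic acid cycle were also represented at higher levels in psoas major. Of 12 tested genes of pyruvate dehydrogenase, its regulators and the pyruvate carrier, 9 were called higher and 0 lower (median 0.31), and the median was above 0 in 10 of 10 breeds. PDHA1, the catalytic subunit, was at 198, 262 and 412 FPKM in psoas major and 125, 169.6 and 239 FPKM in longissimus dorsi, a log2 difference of 0.63 ± 0.10 (limma adjusted p = 0.00101). Its inhibitory kinases PDK2 and PDK1 were higher as well, by 0.59 and 0.55 on the log2 scale, whereas PDK4, the kinase induced by fasting, was not called, at 371, 684 and 1111 FPKM in psoas major and 216, 731 and 1004 FPKM in longissimus dorsi. The shared subunit DLD and the binding protein PDHX differed by 0.42 and 0.34. Without the block for breed 2 genes of this list were called higher.

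Of 13 tested genes of the tricarboxylic acid cycle and the malate-aspartate shuttle, 8 were called higher and 0 lower, with a median of 0.27. That count fell to 4 without Jinhua, Large White or Rongchang, to 5 without Tibetan wild boar and to 1 without breed in the model. Among the cytosolic shuttle enzymes MDH1 was at 86.9, 192 and 326 FPKM in psoas major and 75.8, 115 and 196 FPKM in longissimus dorsi, and its log2 difference was 0.75 ± 0.12 (limma adjusted p = 0.000919). GOT1 differed by 0.65, and SUCLG2, a succinate-CoA ligase subunit, by 0.36.

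The nuclear-coded respiratory chain had smaller median differences than the fatty acid genes. Complex I had 4 genes called higher and 2 lower of 21 tested (median 0.12), and complexes II to IV with cytochrome c had 7 and 0 of 16 (median 0.20). For complex I the shares were 19.0% higher and 9.5% lower, against 13.7% and 14.2% of all genes tested. The median of complex I was below 0 in 3 breeds and that of complexes II to IV in 2. The counts of calls depended on scaling: after quantile normalization complex I had 9 called higher and 0 lower, and complexes II to IV 12 and 0. The lower count of complex I was 1 with no filter and without Hampshire, Jinhua, Landrace, Large White or Rongchang. The core subunit NDUFS1 was at 66.3, 125 and 152 FPKM in psoas major and 57.5, 81.7 and 109.7 FPKM in longissimus dorsi, with a log2 difference of 0.55 ± 0.09 in 10 of 10 breeds (limma adjusted p = 0.000948). The accessory subunit NDUFB9 was called lower (-0.34), except under quantile normalization. In complex III UQCRC2 and UQCRFS1 differed by 0.55 and 0.51, in complex II SDHC by 0.50, and cytochrome c, CYCS, by 0.46. Without breed in the model 1 gene of complex I and 3 of complexes II to IV were called higher.

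Transcripts of the mitochondrial genome were higher in psoas major. Of the 13 protein-coding genes, 9 were called higher and 0 lower, and 6 were called without breed in the model and 6 after quantile normalization. ND4, a complex I subunit, was at 6972, 12736 and 21030.0 FPKM in psoas major and 3789.6, 7318 and 8989 FPKM in longissimus dorsi, higher in 10 of 10 breeds by 0.91 ± 0.13 (limma adjusted p = 0.000502). ND5, ND6 and ND1 differed by 0.92, 0.88 and 0.76, and the oxidase subunit COX2 by 0.73, a call that was lost after quantile normalization. Strand of the counting is not given in the sources used here, so reads of ND6 and of the genes on the opposite strand cannot be told apart. The 4 members that were not called, ATP6, ATP8, COX1 and COX3, are listed at 0 in 5, 5, 4 and 5 of 10 libraries of psoas major and in 1, 1, 0 and 1 of longissimus dorsi, beside high levels in the remaining libraries. With listed zeros taken as missing, 12 members were called higher, among them COX1 by 1.04, ATP6 by 0.58 and COX3 by 0.58 on the log2 scale, where the fit with zeros gave negative differences. In Tibetan wild boar the median of the list was 0.11, the lowest of the breeds, and in Jinhua 1.20, the highest.

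Among regulators of mitochondrial content, 7 of 19 tested were called higher and 3 lower. PPARA, the fatty acid sensor that drives beta oxidation genes, was at 2.71, 4.93 and 15.2 FPKM in psoas major and 1.7, 2.58 and 7.44 FPKM in longissimus dorsi. Piétrain psoas major was the highest library, and the within-breed difference ran from 0.04 in Berkshire to 2.05 in Piétrain. The log2 difference was 0.74 ± 0.18, positive in 10 of 10 breeds (limma adjusted p = 0.00981). ESRRA, a nuclear receptor of oxidative genes, was higher by 0.51 ± 0.11 (limma adjusted p = 0.00478). PPARGC1A, their best known coactivator, was not called: it was at 3.07, 7.9 and 46.8 FPKM in psoas major and 3.03, 5.92 and 139 FPKM in longissimus dorsi, with the highest levels of both muscles in Berkshire. PRKAG3, the AMP kinase gamma subunit of fast glycolytic muscle whose variants alter glycogen in pigs, was lower, at 2.06, 4.98 and 9.6 FPKM in psoas major and 4.06, 9.17 and 15 FPKM in longissimus dorsi. Meishan alone showed about equal levels, 5.39 FPKM in psoas major and 5.26 FPKM in longissimus dorsi. The log2 difference of PRKAG3 was -0.77 ± 0.14 (limma adjusted p = 0.00185), while the ubiquitous gamma subunit PRKAG1 was higher by 0.49. With breed left out of the model PRKAG3 was the single gene of this list that was called. Of 15 tested genes of the mitochondrial ribosome and import, 5 were called higher (3 with FPKM as deposited, with no filter or without Bamei, Jinhua, Meishan or Piétrain, and 8 after quantile normalization), among them the chaperonin HSPD1 (0.65) and the pore TOMM40 (0.34), and 1, the receptor TOMM22 (-0.25), was called lower.

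**Figure D2:**
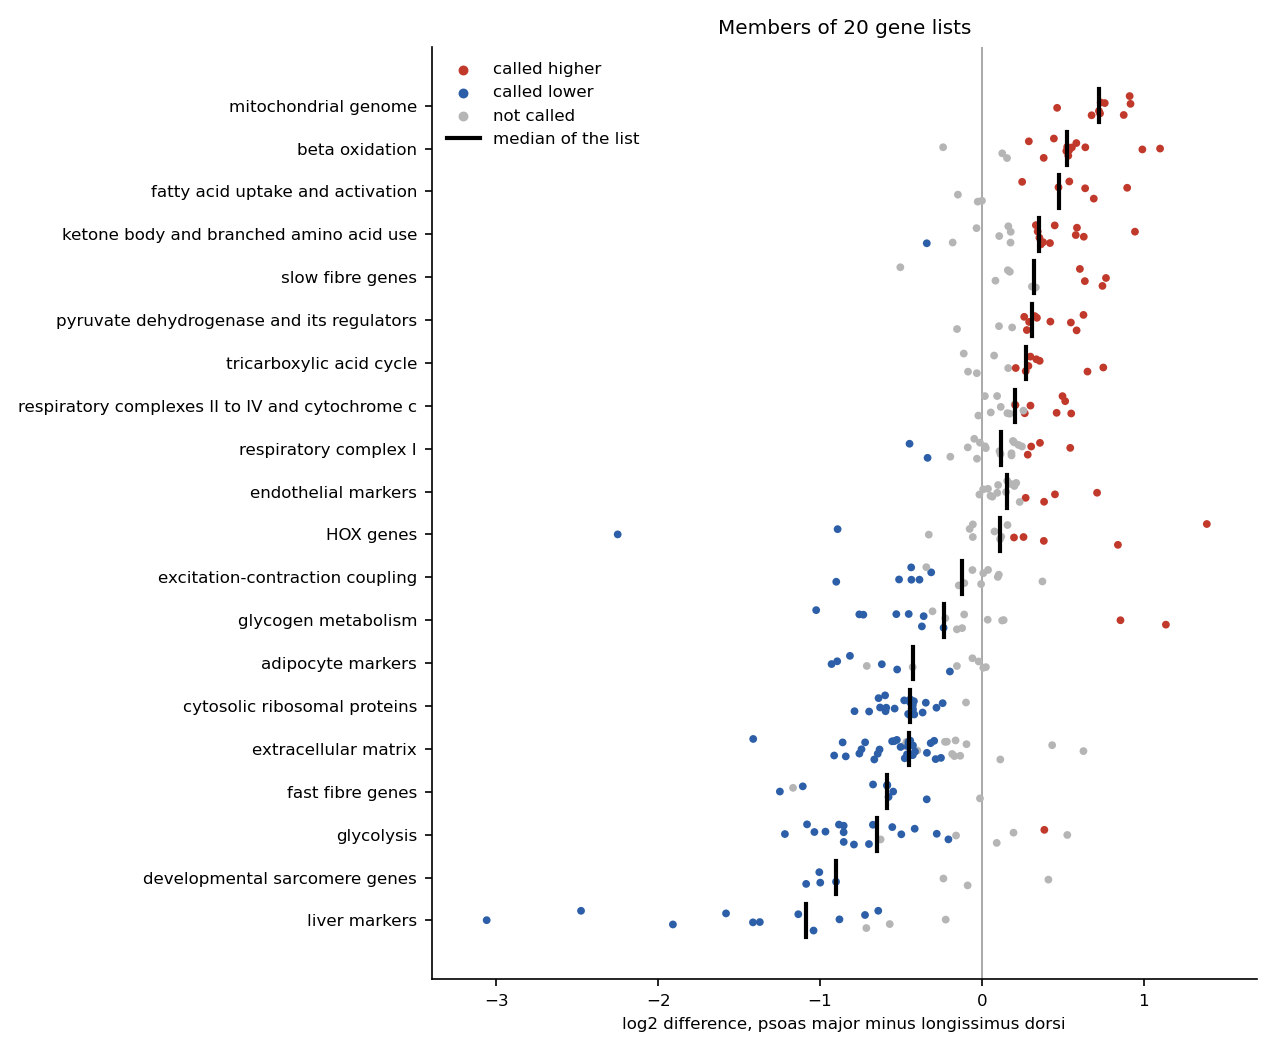
Log2 differences, psoas major minus longissimus dorsi, of the tested members of 20 gene lists, with 1 point per gene and the list median as a bar (ATP6, ATP8, COX1 and COX3, listed at 0 in several psoas major libraries, lie left of the axis). Medians ran from 0.72 for the mitochondrial genome to -1.09 for liver markers, 9 of whose 14 tested members passed the filter through longissimus dorsi alone.

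Glycolysis was represented at lower levels in psoas major. Of 22 tested genes, 16 were called lower and 1 higher, with a median log2 difference of -0.65, and the median lay below 0 in 10 of 10 breeds. Of all genes tested, 14.2% were called lower. GPI, which turns glucose 6-phosphate into fructose 6-phosphate, was at 143, 342 and 590.0 FPKM in psoas major and 291, 740.0 and 1362 FPKM in longissimus dorsi, and the ranges overlapped although every breed had the lower level in psoas major. On the log2 scale it differed by -1.08 ± 0.13 (limma adjusted p = 0.000212). GAPDH, among the 10 most abundant transcripts of both muscles, was at 9864, 16183 and 24763 FPKM in psoas major and 21261, 30163 and 45300.0 FPKM in longissimus dorsi. It was lower in psoas major in 10 of 10 breeds, with a log2 difference of -0.88 ± 0.12 (limma adjusted p = 0.000492), with differences between -1.46 in Rongchang and -0.18 in Tibetan wild boar. The muscle isoforms PGAM2 (phosphoglycerate mutase) and ENO3 (enolase) differed by -1.03 and -0.85, pyruvate kinase PKM by -0.85 and the glycerophosphate shuttle enzyme GPD2 by -0.97. The non-muscle mutase PGAM1 was not called at 0.09, nor was hexokinase HK2, at 1.15, 9.91 and 18.9 FPKM in psoas major and 1.76, 4.62 and 13.6 FPKM in longissimus dorsi. The single member called higher was PFKL, the liver form of phosphofructokinase, named here after its values were seen, with a log2 difference of 0.39 ± 0.11 in 10 of 10 breeds (limma adjusted p = 0.0226). In the fit that ignored breed 6 glycolytic genes were called lower and 0 higher.

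Glycogen genes moved in both directions. Of 18 tested, 8 were called lower and 2 higher. PYGM (ENSSSCG00000013022), the phosphorylase that breaks glycogen down in muscle, was at 863, 1968 and 3225 FPKM in psoas major and 2224, 4087 and 6097 FPKM in longissimus dorsi. Bamei had the lowest level in both muscles, and the pair of Tibetan wild boar differed least. The fitted log2 difference was -1.02 ± 0.15, 2.03-fold lower in psoas major on that scale, in 10 of 10 breeds (limma adjusted p = 0.000612). Its activating kinase was lower too, with PHKA1 at -0.76 and PHKG1 at -0.73. The 2 members called higher act in synthesis. PPP1R3G, a regulatory subunit that directs protein phosphatase to glycogen, was at 6.81, 9.32 and 20.1 FPKM in psoas major and 2.55, 3.94 and 6.4 FPKM in longissimus dorsi, so the muscles did not overlap, and differed by 1.14 ± 0.15 (limma adjusted p = 0.000414). PPP1R3D, another subunit of this kind, was called lower, at -0.53 in 9 of 10 breeds (limma adjusted p = 0.0188). GBE1, the branching enzyme, was at 7.17, 12.4 and 24 FPKM in psoas major and 3.51, 6.52 and 11.7 FPKM in longissimus dorsi, a difference of 0.86 ± 0.09 (limma adjusted p = 0.000143). In the unpaired fit 2 glycogen genes were called lower and 2 higher.

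Genes that keep adenine nucleotides and creatine available for fast contraction were lower in psoas major in 4 of 10 cases and higher in 1, and in 2 and 1 without breed in the model. AMPD1, muscle AMP deaminase, was at 47.4, 175 and 288 FPKM in psoas major and 125, 361 and 583 FPKM in longissimus dorsi, with the widest gap in Piétrain (-2.86 on the log2 scale) and the narrowest in Large White (-0.39). Over all breeds it differed on the log2 scale by -1.21 ± 0.24 (limma adjusted p = 0.00404). Adenylate kinase, AK1, differed by -1.08, and GAMT, the last enzyme of creatine synthesis, by -0.72. ADSS2, an isoform of adenylosuccinate synthase, was the member called higher, at 0.31.

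Fast fibre genes were lower and a few slow fibre genes higher in psoas major. Of 10 tested fast fibre genes, 8 were called lower and 0 higher (median -0.59), and without breed in the model 2 were called lower, TPM1 and MYBPC2. TPM1, fast alpha tropomyosin, was at 1650.4, 3989.7 and 4949.5 FPKM in psoas major and 3764, 8905 and 11910.0 FPKM in longissimus dorsi. Every breed had the lower level in psoas major, from -0.31 in Tibetan wild boar to -2.28 in Piétrain on the log2 scale. The mean log2 difference over breeds was -1.25 ± 0.16 (limma adjusted p = 0.000294). MYBPC2, fast myosin-binding protein C, differed by -1.11 ± 0.15, and the light chains MYL11 and MYL1 and fast troponin C, TNNC2, by -0.67, -0.58 and -0.55. Parvalbumin, PVALB, a calcium buffer of fast fibres, was not called: it was at 0.369, 10.4 and 129 FPKM in psoas major and 2.01, 32.7 and 378 FPKM in longissimus dorsi.

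Of 10 tested slow fibre genes, 4 were called higher and 0 lower (median 0.32), and 1 was called without breed in the model and 6 were after quantile normalization. MYBPC1, slow myosin-binding protein C, was at 632, 956 and 1394 FPKM in psoas major and 383, 552 and 741 FPKM in longissimus dorsi and differed by 0.75 ± 0.09 in 10 of 10 breeds (limma adjusted p = 0.000205). MYH6, alpha cardiac myosin, was at 548, 961 and 2622 FPKM in psoas major and 390.1, 677 and 1796 FPKM in longissimus dorsi, with Tibetan wild boar highest in both, and differed by 0.61 ± 0.16 (limma adjusted p = 0.0173). Its near-identical neighbour MYH7 is not paired with an ID here, so reads of the 2 genes may be mixed and the level of MYH6 is uncertain. MYH7B, a further slow myosin gene, differed by 0.77. Slow troponins C and I, TNNC1 and TNNI1, were not called: TNNI1 was at 984, 1498 and 2936 FPKM in psoas major and 796, 1210.5 and 2485 FPKM in longissimus dorsi, and TNNC1 differed by 0.31. The list median was above 0 in 7 breeds and below 0 in Hampshire (-0.29), Landrace (-0.28) and Piétrain (-0.07).

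Of 7 tested genes listed as developmental sarcomere genes, 4 were called lower and 0 higher, with a median of -0.90, and 1 of the lower ones, MYH13, encodes the extraocular myosin rather than a form of early development. MYH3, embryonic myosin, was at 7.26, 16.2 and 32.8 FPKM in psoas major and 9.14, 36.1 and 72.2 FPKM in longissimus dorsi; Berkshire alone had the higher level in psoas major. Its log2 difference was -0.90 ± 0.22 (limma adjusted p = 0.0104). TNNT2 differed by -1.09 and MYH13 by -1.0, while MYH8, perinatal myosin, was not called, at 981, 3186 and 5249 FPKM in psoas major and 1996, 3300.0 and 5897 FPKM in longissimus dorsi. Sarcomeric myosins are long and alike, and how reads shared between them were counted is not given in the sources used here, so their levels are uncertain. When breed was not in the model 1 gene of the list, MYH13, was called.

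In excitation-contraction coupling 6 of 16 tested genes were called lower and 0 higher. The calcium channel subunits CACNG1 and CACNB1 differed by -0.90 and -0.51, each lower in 10 of 10 breeds. SLN, sarcolipin, an inhibitor of the calcium pump, differed by -0.44. These calls were lost without breed in the model. At the Z disc 3 genes were called higher and 5 lower of 23, and after quantile normalization 5 were called higher and 2 lower. The lower count was 2 without Bamei or Jinhua, 3 without Hampshire, Landrace or Rongchang and 0 without breed in the model. There the stretch-responsive ANKRD2 was higher by 0.95 and the titin cap TCAP by 0.80 ± 0.10, with 1616, 2096 and 3401 FPKM in psoas major and 852, 1329 and 2024 FPKM in longissimus dorsi (limma adjusted p = 0.000255). The thin filament cap TMOD4 and myopalladin, MYPN, were lower, at -0.48 and -0.42. Of 9 genes of the neuromuscular junction 1 was called higher and 2 lower: CHRNA1, the acetylcholine receptor alpha subunit, and NCAM1, an adhesion molecule of innervation and regeneration, were lower at -0.36 and -0.60. The higher call was lost with FPKM as deposited and without Bamei, Berkshire, Hampshire, Large White or Rongchang. Of the 9, 2 passed the filter through longissimus dorsi alone, CHRNA1 among them, so that the filter favoured its lower level. Among the 7 that passed in both muscles 1 was called lower, NCAM1. Of 15 myogenic factors and satellite cell genes, 1 was called higher, SIX4 (0.47), and 1 lower, the fusion protein MYMK (-0.58). The lower count was 3 without Bamei and 2 after quantile normalization or without Berkshire, Hampshire, Landrace or Rongchang, and the higher count 2 without Landrace or Piétrain. Of all genes tested, 13.7% were called higher and 14.2% lower. The shares called higher were 0% in excitation-contraction coupling, 13.0% at the Z disc, 11.1% at the junction and 6.7% among myogenic genes. The shares called lower were 37.5%, 21.7%, 22.2% and 6.7% in that order.

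Some patterning transcription factors separated the muscles without overlap. ZIC1 (ENSSSCG00000011692), a zinc finger factor of the dorsal neural tube and dorsal somite, was at 0, 0.189 and 0.605 FPKM in psoas major, against 4.14, 7.13 and 9.16 FPKM in longissimus dorsi. All 10 longissimus dorsi libraries lay above all 10 psoas major libraries, with Hampshire the highest of psoas major and Tibetan wild boar at 0. The log2 difference was -2.68 ± 0.12, 6.39-fold lower in psoas major on this scale (limma adjusted p = 2.79e-07). ZIC1 passed the filter of 1 FPKM in 3 libraries through longissimus dorsi alone, so that the filter favoured its lower level in psoas major. As deposited, ZIC1 reached at most 0.0325 FPKM in lung, 0.0308 in liver and 0.0598 in spleen, and was listed at 0 in every library of heart and kidney. Subcutaneous adipose held 0.519 to 9.35 FPKM.

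HOX genes, which mark position from head to tail in the order of their numbers along each cluster, moved in both directions. Of 15 tested HOX genes, 5 were called higher and 2 lower. These shares, 33.3% and 13.3%, stand beside 13.7% and 14.2% of all genes tested. HOXC6, a thoracic member, was at 0.863, 1.12 and 1.75 FPKM in psoas major and 5.65, 8.77 and 16.4 FPKM in longissimus dorsi. The muscles did not overlap, and the log2 difference was -2.25 ± 0.14 (limma adjusted p = 3.48e-06). HOXA10, a lumbar and hindlimb member, went the other way, at 2.0, 2.72 and 4.49 FPKM in psoas major and 0, 0.585 and 1.36 FPKM in longissimus dorsi. Here too the muscles did not overlap, and the log2 difference was 1.39 ± 0.10 (limma adjusted p = 8.51e-06). HOXC10 was higher in 10 of 10 breeds, at 6.34 to 16.6 FPKM in psoas major and 1.85 to 9.83 FPKM in longissimus dorsi, by 0.84 ± 0.20 (limma adjusted p = 0.00968). HOXD9 was lower without overlap, at 2.22, 4.22 and 4.78 FPKM in psoas major and 4.86, 8.0 and 9.43 FPKM in longissimus dorsi, with a log2 difference of -0.89 ± 0.11 (limma adjusted p = 0.000289). These 4 genes kept their calls under every alternative that tested them, HOXA10 being too low for the filter at 5 FPKM. The other called members, HOXA7, HOXB3 and HOXB6, differed by 0.38, 0.20 and 0.26 and lost their calls in 11, 10 and 6 of the 17 alternatives with breed in the model. The higher count was 2 without breed in the model, with the filter at 5 FPKM or without Bamei, Hampshire or Jinhua. It was 3 with FPKM as deposited, with no filter, or without Berkshire, Landrace, Large White, Rongchang or Tibetan wild boar. Of the 15, 2 passed the filter of 1 FPKM in 3 libraries through psoas major alone, HOXA10 and HOXB6, and 1 through longissimus dorsi alone, so that the filter favoured a difference in these genes. Among the 12 that passed in both muscles 3 were called higher and 2 lower.

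Of 22 other patterning factors tested, 5 were called higher and 6 lower, and without breed in the model 4 and 3; without Jinhua 3 were called lower. Of these factors 3, ZIC1 and EN1 among them, passed the filter through longissimus dorsi alone, so that the filter favoured their lower level. Among the 19 that passed in both muscles 5 were called higher and 3 lower. Of all genes tested, 13.7% were called higher and 14.2% lower. IRX3, a homeobox factor of limb and neural patterning, was at 4.53, 8.98 and 39.7 FPKM in psoas major and 1.74, 3.14 and 11.1 FPKM in longissimus dorsi. Piétrain and Hampshire were highest in psoas major, and Bamei alone had the lower level there. Over breeds the log2 difference averaged 1.36 ± 0.25 (limma adjusted p = 0.00303). The T-box factor TBX18 was at 1.91, 3.54 and 4.34 FPKM in psoas major and 0.912, 1.63 and 2.07 FPKM in longissimus dorsi, overlapping in the lowest psoas major library, that of Piétrain. Its difference of 0.78 ± 0.05 varied little between breeds, from 0.60 to 1.08 (limma adjusted p = 6.21e-06). LBX1, which guides limb muscle precursors as they migrate, differed by 0.76 ± 0.10 in 9 of 10 breeds, and TBX3, a limb and body wall factor, by 0.70 ± 0.11 (limma adjusted p = 0.00031 and 0.000973). EN1, a marker of the central dermomyotome that divides back from belly muscle in the chick and mouse embryo, was lower in 10 of 10 breeds with a log2 difference of -0.55 ± 0.10, at levels of 0.0483, 0.523 and 0.877 FPKM in psoas major and 0.578, 0.947 and 1.99 FPKM in longissimus dorsi.

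**Figure D3:**
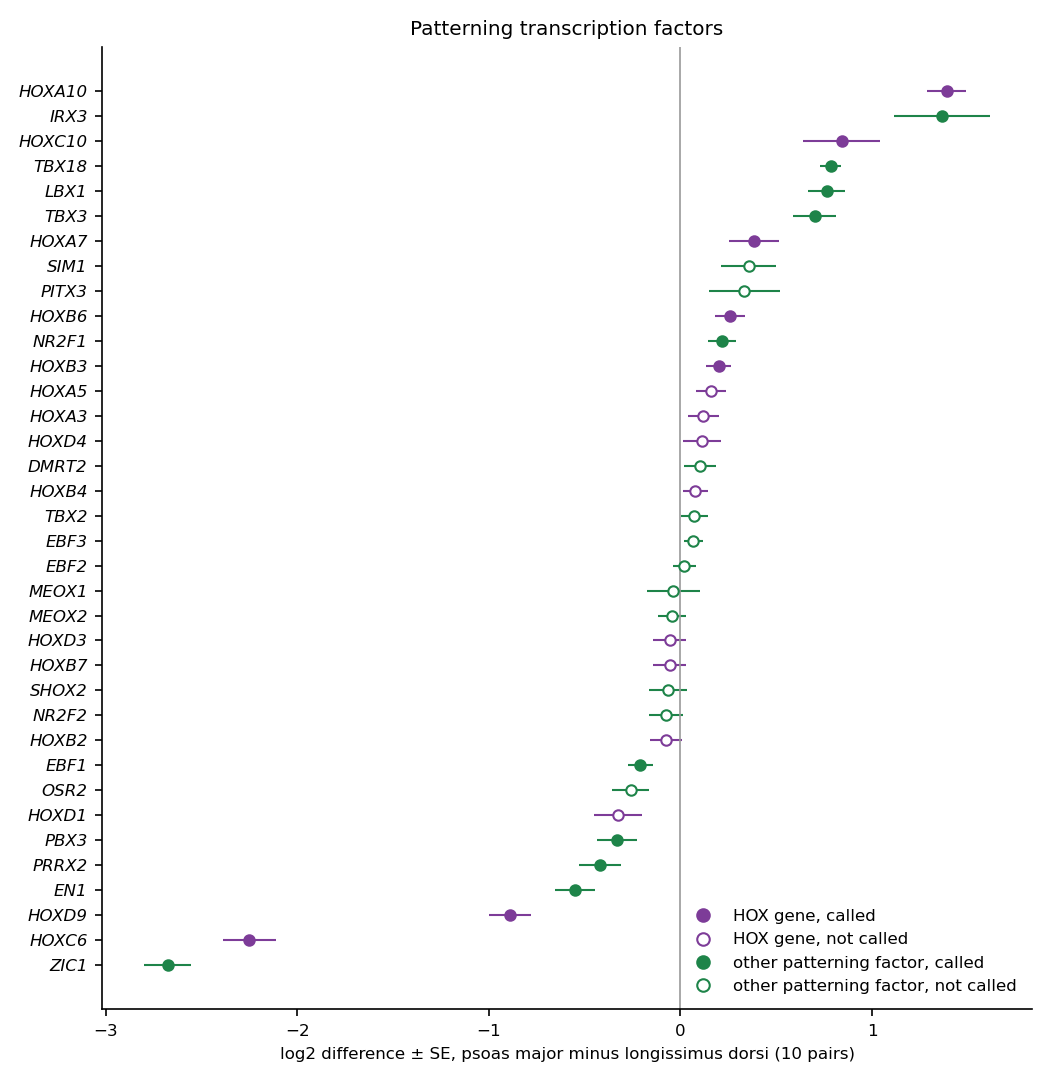
Log2 difference ± SE (10 breed pairs), psoas major minus longissimus dorsi, of tested HOX genes and other patterning transcription factors, with filled points for called genes. ZIC1 (-2.68) and HOXC6 (-2.25) lie at the low end and HOXA10 (1.39) and IRX3 (1.36) at the high end.

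Genes of the extracellular matrix were lower in psoas major. Of 42 tested, 29 were called lower and 0 higher, with a median log2 difference of -0.45 and a median below 0 in 10 of 10 breeds. The collagen gene COL3A1 was at 239, 414 and 562 FPKM in psoas major and 359, 805 and 1223 FPKM in longissimus dorsi. Rongchang and Berkshire were highest in both muscles, and each breed had the lower level in psoas major. Its log2 difference was -0.91 ± 0.08 (limma adjusted p = 5.48e-05). POSTN, periostin, a matrix protein of growing and healing connective tissue, was at 0.982, 6.75 and 11.4 FPKM in psoas major and 4.68, 18.6 and 40.5 FPKM in longissimus dorsi, and differed by -1.41 ± 0.13 (limma adjusted p = 6.27e-05). SPARC, COL14A1 and decorin, DCN, which bind or space collagen fibrils, differed by -0.84, -0.76 and -0.74, each lower in psoas major in 10 of 10 breeds, and COL1A2 by -0.86. Lumican, LUM, was not called at -0.16. With the breed term removed 9 of these genes were called lower. Enzymes that process matrix had 10 called lower and 2 higher of 23, with ADAMTS8, an extracellular protease, at -1.32, the procollagen processing enhancer PCOLCE at -0.83, the gelatinase MMP2 at -0.71 and the collagen crosslinking oxidase LOX at -0.58; without breed in the model 3 were called lower, and 1 was called higher with FPKM as deposited or without Large White. In whole muscle pieces, fewer cells of a type and less RNA per cell cannot be told apart. Markers of fibroblasts and tenocytes had 2 called lower and 1 higher of 7, the higher call being lost with FPKM as deposited, with no filter and without Berkshire, Hampshire, Large White, Meishan or Piétrain. PDGFRA, a receptor of resident fibroblasts and fibro-adipogenic cells, was at 2.68, 3.89 and 5.75 FPKM in psoas major and 3.56, 5.36 and 8.03 FPKM in longissimus dorsi, a difference of -0.38. Their summed level as deposited ran from 44.6 to 125 FPKM in psoas major and from 48.6 to 137 FPKM in longissimus dorsi, and their part in the matrix result was not tested.

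Adipocyte markers were lower in psoas major, 6 of 13 tested with 0 higher and a median of -0.43, and 3 were called lower without breed in the model. The list median was below 0 in 9 breeds and 0.19 in Bamei. CFD, adipsin, was at 52.4, 65.5 and 136 FPKM in psoas major and 74.2, 119.8 and 207 FPKM in longissimus dorsi, lower in 10 of 10 breeds with a log2 difference of -0.82 ± 0.12 (limma adjusted p = 0.000608). CIDEC, a lipid droplet protein of fat cells, was lower at -0.89 ± 0.24, with Bamei alone the other way round, at 4.12 FPKM in psoas major and 2.3 FPKM in longissimus dorsi. FASN, fatty acid synthase, was lower at -0.52. The 14 matched markers summed to 74.6 to 169 FPKM as deposited in psoas major and 114 to 299 FPKM in longissimus dorsi, against 1815 to 5518 FPKM in 9 subcutaneous adipose libraries. CIDEC and CFD were called under every alternative. Whether the level of adipocyte markers bears on the fatty acid genes above was not tested.

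Transcripts made chiefly by the liver were lower in psoas major and varied widely between breeds in longissimus dorsi. The filter left 14 of 24 matched members, and 9 of these passed through longissimus dorsi alone, so that their lower level in psoas major was in part set by the filter and the list's count of calls and median carry no weight. Of the 5 that passed in both muscles, 3 were called lower and 0 higher. With no filter, all 24 matched members had the lower median FPKM as deposited in psoas major, many of them near 0 in both muscles. ALB, serum albumin, was at 0.0334, 0.211 and 6.51 FPKM in psoas major and 0.0743, 19.4 and 102 FPKM in longissimus dorsi. Longissimus dorsi of Piétrain (102), Bamei (58.7) and Jinhua (48.5 FPKM) was high, while Rongchang (1.56) and Tibetan wild boar (0.0743 FPKM) held little. Its log2 difference was -3.06 ± 0.61, negative in 10 of 10 breeds (limma adjusted p = 0.00598). APOC3 (-2.48), AHSG (-1.91), TTR (-1.58) and AMBP (-1.37), other secreted proteins of hepatocytes, were called lower as well and are among those that passed through longissimus dorsi alone. The 24 matched liver markers summed to 17.7 to 49.4 FPKM as deposited in psoas major, to 26.2 to 334 FPKM in longissimus dorsi and to 58322 to 105290.0 FPKM in 9 liver libraries, in which ALB itself is listed at 0. Subcutaneous adipose, taken in the same study, held 17.4 to 146 FPKM of ALB, so longissimus dorsi was not the single tissue outside liver with this transcript. Kidney markers were near 0 in both muscles, 0.245 to 5.49 FPKM summed over 14 genes in psoas major and 0.238 to 1.26 FPKM in longissimus dorsi, against 3576 to 4434 FPKM in kidney. Whether RNA of other tissue pieces reached some libraries was not tested.

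**Figure D4:**
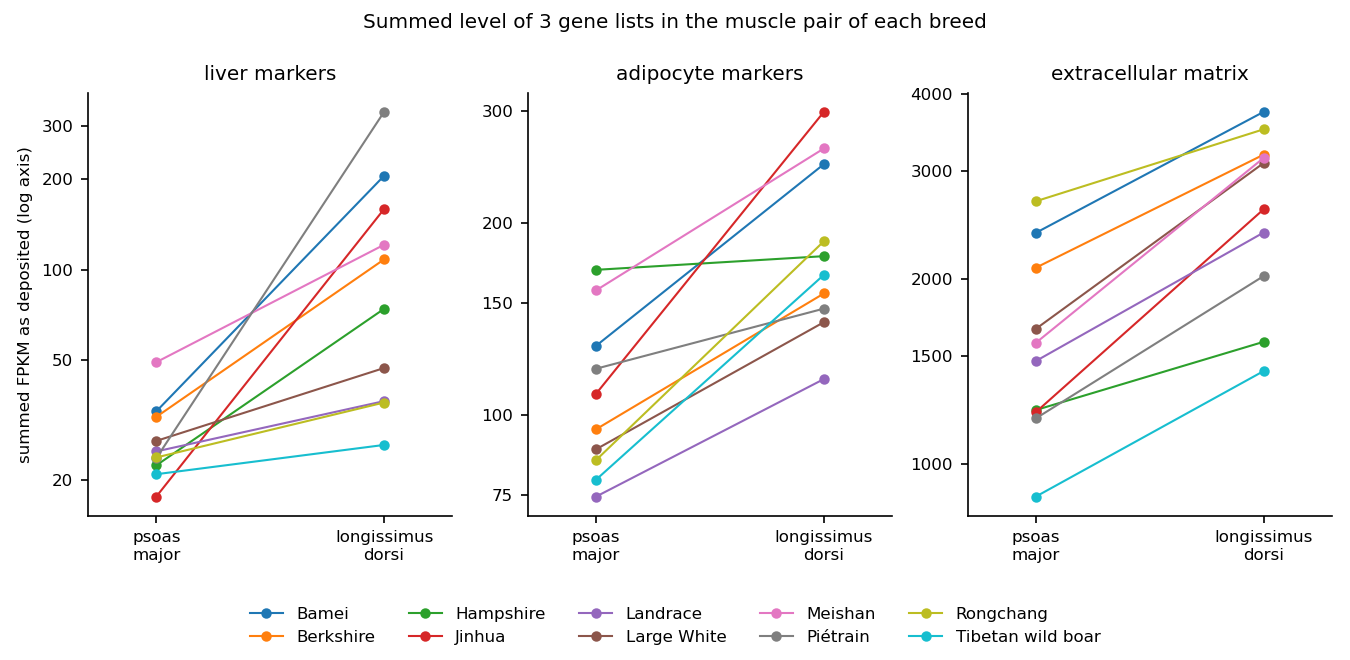
Summed FPKM as deposited (log axis) of liver markers, adipocyte markers and extracellular matrix genes in psoas major (left) and longissimus dorsi (right), each line joining the muscles of 1 breed. Every line rises toward longissimus dorsi, most steeply for liver markers in Piétrain, with 23.7 FPKM in psoas major and 334 FPKM in longissimus dorsi, and among liver markers least in Tibetan wild boar, with 21.0 FPKM in psoas major and 26.2 FPKM in longissimus dorsi.

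Markers of other resident cells are read against all genes tested, of which 13.7% were called higher and 14.2% lower. The shares were 23.5% higher for endothelial markers, 33.3% higher for red blood cell genes and 28.6% lower for macrophage and myeloid genes. Endothelial markers had 4 called higher and 0 lower of 17, with 2 higher without Bamei and 0 without breed in the model. ADGRL4, an adhesion receptor of vessel sprouts, was higher in 10 of 10 breeds by 0.38, and PECAM1, the general endothelial marker, was not called, at 33.4, 59.5 and 96 FPKM in psoas major and 30.2, 57.4 and 79.2 FPKM in longissimus dorsi. Among 6 red blood cell genes 2 were called higher and 0 lower, and 1 higher without breed in the model. CA2, carbonic anhydrase, was at 1.25, 2.28 and 10.5 FPKM in psoas major and 0.223, 0.651 and 2.43 FPKM in longissimus dorsi, a difference of 1.13 ± 0.17 (limma adjusted p = 0.000853), but beta globin, HBB, the defining gene, was not called, at 116, 649.5 and 1494 FPKM in psoas major and 102, 526 and 1528 FPKM in longissimus dorsi. Macrophage and myeloid genes had 4 called lower of 14 (0 without breed in the model), with CD14 at -0.34 and CSF1R at -0.18. Of 9 lymphocyte genes limma called 0, with 1 at an unadjusted p below 0.05, and 1 was called higher after quantile normalization and without Berkshire, Jinhua or Piétrain.

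Cytosolic ribosomal protein genes were lower in psoas major almost throughout. Of 24 tested, 23 were called lower and 0 higher, with log2 differences between -0.79 and -0.10 and a median of -0.44, which is -0.24 after quantile normalization. With breed left out of the model 19 were called. RPL38, of the large subunit, was at 302, 409 and 464 FPKM in psoas major and 494, 626 and 802 FPKM in longissimus dorsi, with no overlap, and differed by -0.63 ± 0.07 (limma adjusted p = 0.000227). RPS16, of the small subunit, was at 185, 312 and 383 FPKM in psoas major and 369.5, 531 and 838 FPKM in longissimus dorsi. Psoas major of Tibetan wild boar lay below all the others, and the difference was -0.79 ± 0.07 (limma adjusted p = 6.11e-05). RPLP1, RPS9 and RPS12 differed by -0.64, -0.60 and -0.60. FAU was the member not called. Ribosomal protein genes have many near-copies in mammalian genomes, and 24 of the 75 listed symbols were matched to an ID, so single levels are uncertain. Elongation and initiation factors had 9 called lower (5 after quantile normalization) and 1 higher (0 with FPKM as deposited or without Jinhua) of 23, with the elongation factor subunits EEF1B2 and EEF1D at -0.66 and -0.50 and the translation repressor EIF4EBP1 at -0.57.

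Among growth and activity signals, MSS51, a mitochondrial protein of fast glycolytic muscle, had one of the wider gaps. It was at 2.1, 5.01 and 20.2 FPKM in psoas major and 5.12, 47.7 and 58.8 FPKM in longissimus dorsi, and longissimus dorsi of Bamei, Berkshire and Jinhua stood well below the other breeds at 5.12, 7.1 and 9.95 FPKM. Its log2 difference was -2.09 ± 0.30 (limma adjusted p = 0.000908). RCAN2, a calcineurin inhibitor, was higher by 1.10 ± 0.17 in 10 of 10 breeds (limma adjusted p = 0.000922), and CAMK2A, a calcium-activated kinase, lower at -0.38. The insulin-like growth factor binding protein IGFBP5 was at 2.72, 5.18 and 9.79 FPKM in psoas major and 4.33, 14.9 and 22.9 FPKM in longissimus dorsi, a difference of -0.99 ± 0.12 (limma adjusted p = 0.000217), with IGFBP6 at -0.69 and the insulin receptor substrate IRS1 at -0.68. GRB14, an adaptor that restrains the insulin receptor, was at 0.375, 1.0 and 4.19 FPKM in psoas major and 0.118, 0.228 and 0.753 FPKM in longissimus dorsi, higher in 10 of 10 breeds by 0.71 ± 0.14 (limma adjusted p = 0.00401). It passed the filter through psoas major alone, so that the filter favoured a difference in this gene. Peroxiredoxin PRDX2 was higher by 0.37 and extracellular superoxide dismutase, SOD3, lower at -0.75. The oxygen-sensing prolyl hydroxylases EGLN3 and EGLN1 were higher by 0.67 and 0.45. The ubiquitin ligase TRIM63, which marks wasting muscle, was not called, at 80.7, 124 and 317 FPKM in psoas major and 77.1, 189 and 599 FPKM in longissimus dorsi, while the transcription factor FOXO4 was higher by 0.43 and the autophagy kinase ULK1 lower at -0.51. Heat shock and folding genes had 5 called higher and 0 lower of 21, the higher count falling to 2 with FPKM as deposited and without Bamei, Jinhua, Landrace or Rongchang and to 3 with no filter and without Large White or Piétrain; 2 were called lower without Bamei. Interferon-induced genes had 4 of 19 called higher, 0 with FPKM as deposited or without breed in the model and 2 without Hampshire or Large White. Among the 17 that passed the filter in both muscles 3 were called higher. Clock genes had 1 higher and 3 lower of 13, and 2 lower among the 12 that passed in both. The higher call was lost with FPKM as deposited, after quantile normalization, with no filter and without Berkshire, Hampshire, Jinhua, Landrace, Large White, Meishan or Piétrain. Shares called higher were 23.8% for heat shock and folding, 21.1% for interferon-induced and 7.7% for clock genes, against 13.7% of all genes tested. The share called lower was 23.1% for clock genes, against 14.2% of all genes tested.

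Several of the 12 genes with a symbol and the smallest p-values in each direction were outside these lists. Higher in psoas major in 10 of 10 breeds were CLIP4, a microtubule-linker protein (1.23 on the log2 scale), GPAM, the mitochondrial acyltransferase that starts glycerolipid synthesis (0.99), the kinase MAST2 (0.78) and XIAP, an inhibitor of cell death (0.59). RAPGEF4, a cyclic AMP-dependent exchange factor, was at 1.91, 3.02 and 6.95 FPKM in psoas major and 0.727, 1.19 and 1.78 FPKM in longissimus dorsi, without overlap, and differed by 0.98 ± 0.10 (limma adjusted p = 0.00013). Lower in 10 of 10 breeds were MAB21L1, a factor of eye and face development (-1.10), the growth factor betacellulin, BTC (-0.80), LIN7B, a scaffold protein of cell junctions (-0.61), and CTHRC1, a secreted collagen-repeat protein (-0.73).

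The breeds shared the direction of these differences to different degrees. For each breed the genes called in the other 9 were taken, and the share with the same direction in that breed was counted. It was highest in Jinhua, at 93.1% of 2723 genes, and lowest in Tibetan wild boar, at 73.3% of 3468, where the median size of the difference was 0.157 against 0.333 in the other 9. Piétrain had the widest gaps in fast fibre genes (-1.31) and glycolysis (-0.86), each value being the list median within the breed. In Tibetan wild boar and Berkshire fast fibre genes (-0.22 and -0.19) and glycolysis (-0.20 and -0.24) differed least, and in Tibetan wild boar beta oxidation (0.55) was above the median of the breeds (0.45). Landrace had the smallest medians of beta oxidation (0.14) and fatty acid uptake (0.07) beside a median of -0.75 in glycolysis. Without Tibetan wild boar, 12 beta oxidation genes were called higher and 15 glycolytic, 9 fast fibre, 29 matrix and 23 ribosomal protein genes lower. With 1 library per breed and muscle, the spread within a breed is not known, so no difference between breeds was tested.

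**Figure D5:**
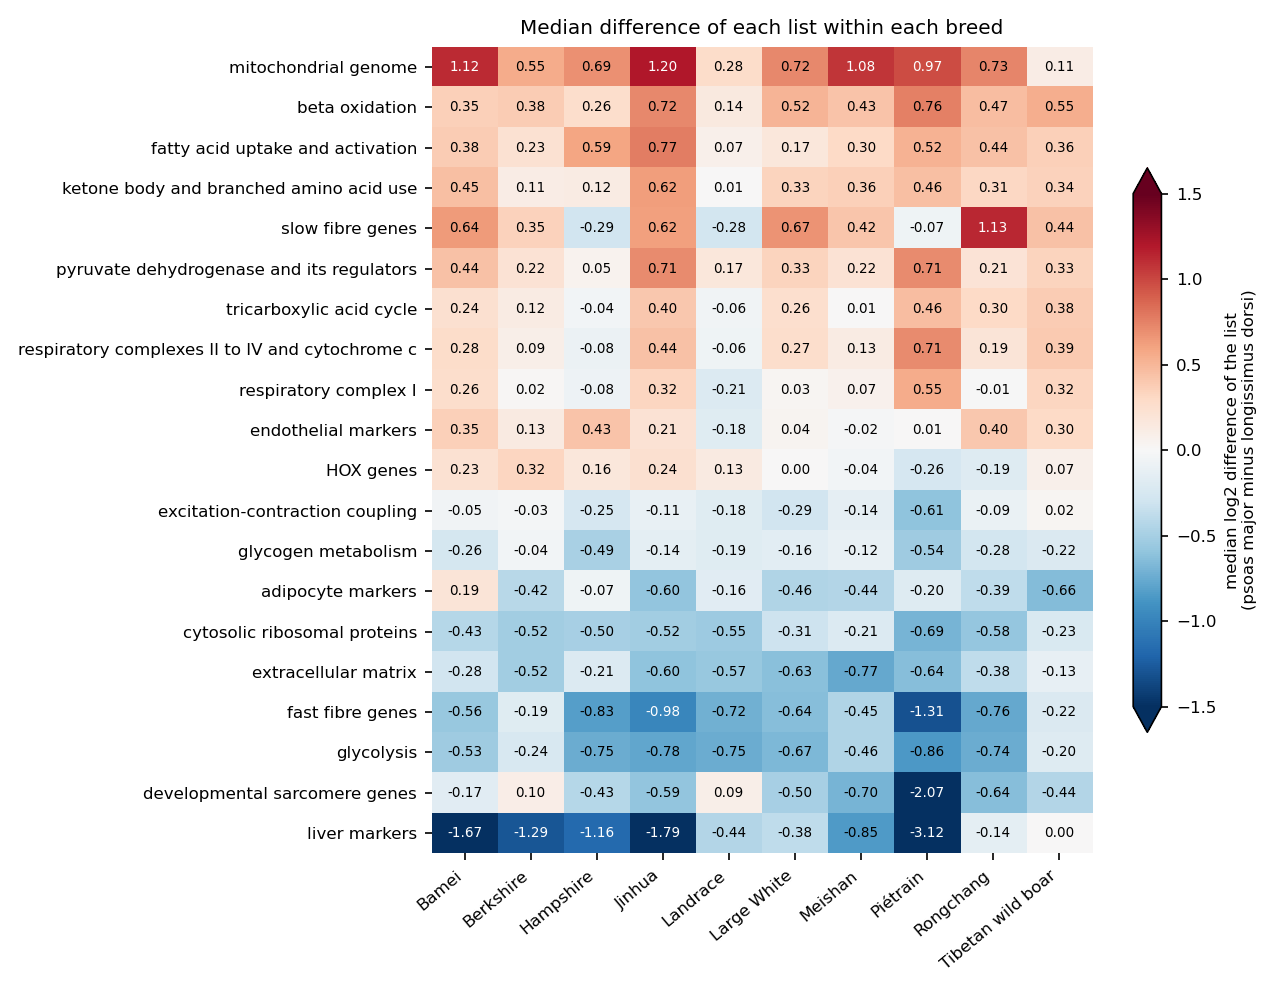
Median log2 difference of the tested members of 20 gene lists (rows) within each breed (columns), psoas major minus longissimus dorsi, with red above and blue below 0. Beta oxidation was above 0 and glycolysis, fast fibre genes and ribosomal proteins below 0 in all 10 breeds, while slow fibre genes were below 0 in Hampshire, Landrace and Piétrain.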

How the data were processed

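RNA sequencing of psoas major and longissimus dorsi was taken from gene tables of FPKM deposited by the authors. Per the submitters' processing notes, TopHat and Cufflinks 2.2.1 were used with pig genome build Sscrofa10.2; strand, read sharing and pooling of animals are not given in the sources used here. That the values are FPKM follows from those tools and from the values, and no counts were used, so the depth is unknown and no counting interval is given. Of 25322 gene IDs, 11804 had a symbol in the supplied name table.

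The 20 libraries were scaled by median ratios over genes at 1 FPKM or more in all of them. Genes that reached 1 FPKM in 3 libraries or more were tested on log2(scaled FPKM + 1), which understates changes of low genes, with limma 3.58.1 in R 4.3.3 (trend and robust options, breed as a block, two-sided, Benjamini-Hochberg, threshold 0.05). The method was tested on simulated data with 200 changed genes. Library composition was tested by exact sign flips over 10 breeds, also without the mitochondrially encoded genes. Psoas major libraries correlated with longissimus dorsi of their own breed, after muscle means were removed, at r of 0.32 to 0.53. Among the longissimus dorsi libraries their own breed was the best match for 10 of 10, which together with the shared breed label is the basis of the pairing. Breeds are the replicates, and p-values measure only the spread between these samples.

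The comparison and the 47 gene lists were chosen with earlier results of these data known, and 805 of 1164 listed symbols matched an ID. Named genes are HADHB, PLIN5, ZIC1 and PYGM, up to 6 called members of each list with the largest difference and the same direction in at least 9 of 10 breeds, its 2 most abundant members not called, all tested patterning genes, and the 12 genes in each direction with the smallest p; exceptions are stated, and some genes that this rule names are not reported here. The alternatives left out the breed block, used the deposited FPKM without scaling or quantile-normalized values, changed the pseudocount to 0.1, dropped the filter or raised it to 5 FPKM, ran limma without its trend and robust options, took listed zeros as missing, and left out each breed in turn. No sequences are shown, since none was supplied for these genes.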

Additional observations from a re-analysis of the deposited data

Results flagged for a closer look

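Single libraries stood far from the other 9 of their muscle in 30 of 350 groups of 10, where chance gives about 1 in 20. The measure was the gap to the nearest library relative to the range, on the log2 scale for genes. Library measures such as summed FPKM were taken without the log. Values are scaled FPKM unless stated otherwise. In psoas major, Jinhua was high in the fatty acid and pyruvate genes ACSL3 (37.3), PDHA1 (412) and PDHX (59.5) and in the oxygen sensor EGLN3 (47.3). Psoas major of Hampshire was low in DLD (88.3), NDUFS1 (66.3) and CLIP4 (3.68) and high in LBX1 (8.42). Psoas major of Meishan was high in the liver transcripts AHSG (1.55), TTR (1.28) and AMBP (0.811). Psoas major of Bamei was low in the kinase subunit PHKA1 (19.0), and that of Tibetan wild boar was low in RPS16 (185) and in summed FPKM as deposited (519075).

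In longissimus dorsi, Landrace was high in the mitochondrial transcripts ND5 (5998), ND1 (14191) and COX2 (40377) and was the single library listed at 0 for ATP6, ATP8 and COX3 (0 each). Longissimus dorsi of Bamei was low in AK1 (411), CACNG1 (63.0) and SLN (2361). Longissimus dorsi of Tibetan wild boar was high in the slow fibre genes MYH6 (1796) and TNNI1 (2485) and in MAST2 (13.7). Longissimus dorsi of Hampshire was high in BCKDK (85.3), that of Meishan in CHRNA1 (2.87), that of Berkshire in FASN (17.7) and that of Jinhua in summed FPKM as deposited (942855).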

How the results depend on the processing

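Called genes of the text that were followed through the alternatives numbered 150. Of these, 144 kept their call and direction under every one of 17 alternatives with breed as a block that tested them. LIPE, NDUFB9, COX2, HOXA7, HOXB3 and HOXB6 lost their calls at least once. Without the replicate block for breed 85 of the 150 were called, and over all genes 663, with 350 higher and 313 lower; no alternative that kept the block moved the count of all calls by over 1.5 times. A filter at 5 FPKM left 1053 genes called higher. Leaving out 1 breed at a time gave 2723 to 3468 called genes, 1310 to 1737 higher and 1411 to 1731 lower, with the lowest total without Jinhua and the highest without Tibetan wild boar. Quantile normalization called 1774 higher and 1525 lower. The difference in genes at 1 FPKM or more, -31 with all breeds, lay between -66.6 and 13.8 when 1 breed was left out and was above 0 without Jinhua (4.67) and without Tibetan wild boar (13.8). The difference in the share of the 10 highest genes was 10.9 to 13.0 percentage points. Taking listed zeros as missing reversed ATP6 (0.58), COX1 (1.04) and COX3 (0.58); missing values in place of zeros are the change made there. The cause of the other changes was not tested. Depth is unknown, so genes of low FPKM such as HOXA10 have an unknown counting error, and 1 library per breed and muscle leaves the spread within a breed unmeasured.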
